A study of Mus musculus with 11 samples.

Results

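Transcripts of 10 genes that mark cycling cells were followed in the gingival epithelium of 11 mice. The genes are the proliferation antigen Mki67, the DNA topoisomerase Top2a, the kinase Cdk1, and the cyclin genes Ccnb1, Ccnb2, Ccna2, Ccne1, Ccne2, Ccnd1 and Ccnd2. They were taken by name, in a choice made with earlier results of these data known, and all 10 were found once among the 19170 genes that carry values. All mice were langerin-DTR animals, in which the promoter of langerin (Cd207) drives the receptor for diphtheria toxin, so that the toxin kills cells that express langerin. The paper's methods give male mice, while its reporting summary speaks of both sexes and of groups matched by sex. Control mice received PBS (n = 5) and depleted mice received diphtheria toxin (DT, n = 6). Injections fell on postnatal days 17, 24 and 31. The epithelium of the gums was taken at 8 weeks of age, so the controls carried the same transgene and differed in the injected agent. By that age, the paper reports, Langerhans cells had come back to their normal frequencies in the gingiva. The comparison asks whether early loss of Langerhans cells goes with another level of cell cycle transcripts in the adult tissue. Values are normalized counts, which are reads per gene divided by a size factor of the mouse. Since RNA of the epithelium was sequenced in bulk, fewer cycling cells and less RNA per cycling cell cannot be told apart.

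The gingival epithelium renews itself by division of its basal keratinocytes. In a dividing cell the D cyclins, induced by growth signals, pair with Cdk4 and Cdk6 in G1, the E cyclins pair with Cdk2 at entry into S phase, cyclin A acts in S and G2, and cyclin B with Cdk1 drives mitosis. Top2a untangles replicated DNA and Ki-67, the product of Mki67, coats mitotic chromosomes. The genes used in G2 and M are repressed in resting cells by the DREAM complex, whose DNA site is the cell cycle homology region, and are switched on through CCAAT boxes bound by NF-Y. E2F factors act at the G1/S genes.

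The start regions of 4 members are shown because Mki67, Top2a and Cdk1 hold such elements in these windows and Ccne1 does not. The letters are RefSeq sequence of GRCm38.p6, written 5′ to 3′ on the minus strand on which these 4 genes lie, and end at the base before the RefSeq start. Capitals mark TTTGAA, the core of the cell cycle homology region, CCAAT, and 4 E2F forms (TTTCCCGC, TTTGGCGC, TTTCGCGC and TTTGCCGC), each on either strand, so that TTCAAA and ATTGG are marked as well. The regions are chr7:135716380-135716629 for Mki67, chr11:99024190-99024439 for Top2a, chr10:69352913-69353162 for Cdk1 and chr7:38107535-38107740 for Ccne1, the last of which is 206 bases long and stops where the gene model of the annotation begins. The final 26 bases of the Cdk1 region lie inside the gene model of Cdk1, and they hold the TTTGAA found 15 bases before the RefSeq start.
Mki67: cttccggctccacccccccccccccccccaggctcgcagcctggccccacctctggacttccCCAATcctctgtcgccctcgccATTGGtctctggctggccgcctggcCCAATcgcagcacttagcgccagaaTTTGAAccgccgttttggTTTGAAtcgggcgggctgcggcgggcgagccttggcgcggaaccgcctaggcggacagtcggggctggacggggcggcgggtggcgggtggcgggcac
Top2a: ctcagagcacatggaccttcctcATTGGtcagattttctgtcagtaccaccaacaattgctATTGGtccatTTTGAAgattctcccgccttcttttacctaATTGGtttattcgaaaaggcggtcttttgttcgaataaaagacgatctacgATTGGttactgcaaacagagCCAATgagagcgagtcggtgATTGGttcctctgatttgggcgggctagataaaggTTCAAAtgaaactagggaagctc
Cdk1: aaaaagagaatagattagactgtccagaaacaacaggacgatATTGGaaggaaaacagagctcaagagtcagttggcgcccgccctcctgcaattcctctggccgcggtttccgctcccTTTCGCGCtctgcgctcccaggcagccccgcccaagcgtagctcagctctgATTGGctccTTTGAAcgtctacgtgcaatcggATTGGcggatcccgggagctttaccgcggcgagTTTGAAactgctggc
Ccne1: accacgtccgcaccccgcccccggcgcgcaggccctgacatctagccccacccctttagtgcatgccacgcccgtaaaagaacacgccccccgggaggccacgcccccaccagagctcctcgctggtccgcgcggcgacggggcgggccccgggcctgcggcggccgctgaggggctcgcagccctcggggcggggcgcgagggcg

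A start region was in the table for 6 of the 10 members (these 4, Ccnb1 and Ccnb2), and the 250 bases before each start were searched. Mki67 held TTTGAA 2 times, 116 and 98 bases before the start, and CCAAT 3 times. Top2a held TTTGAA 2 times and CCAAT 6 times. Cdk1 held TTTGAA 2 times, CCAAT 3 times and 1 E2F form. Ccnb2 held TTTGAA 1 time and CCAAT 3 times, Ccnb1 held CCAAT 2 times only, and no motif was found in the 250 bases of Ccne1. No marked motif overlapped another of a different kind. Among all 32851 start regions of the same length, 16.0% held TTTGAA, 33.8% CCAAT, 5.55% both and 1.86% an E2F form, and 1.81% held TTTGAA at least 2 times. A match of letters is a description and not a bound site.

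Mki67 (chr7:135689784-135716361 on GRCm38, minus strand, as for all members but Ccne2) showed the smallest p of the 10 genes. Its normalized count after PBS was 4662, 4130, 3463, 4358 and 4192 in the 5 mice, and it ran from 2910 to 3893 (median 3345) after DT. The mouse PBS 3 was below the 2 highest DT mice, while the other 4 PBS mice were above every DT mouse. The PBS mean was 4161 ± 441 (SD, n = 5), the DT mean was 3360 ± 394 (SD, n = 6), and the difference, DT minus PBS throughout, was -0.31 on the log2 scale (95% CI -0.49 to -0.13, adjusted p = 0.180, limma with Benjamini-Hochberg adjustment over all genes tested). By its limma p the gene ranked 219 of 19170, short of the adjusted threshold of 0.1. Over all 462 ways to divide the mice into 5 and 6, the exact permutation p was 0.0195 (two-sided, adjusted p = 0.333). Without PBS 3 the difference was -0.37 and passed that threshold, with an adjusted p of 0.0775 in the same limma test. A length and GC correction put it closer to 0, at -0.21 (limma adjusted p = 0.188). A mouse contributed between 2711 and 4786 Mki67 reads, so that counting alone gives a spread of 1.65%, against 10.6% between the PBS mice and 11.7% between the DT mice.

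The G1/S cyclins Ccne1 and Ccne2 had the most negative differences of the 10 and the fewest reads. Ccne1 (chr7:38097984-38107534), which encodes cyclin E1, had 52.1, 44.7, 60.3, 40.1 and 63.0 normalized counts in the PBS mice and 32.2 to 49.4 (median 37.1) in the DT mice. Of the 6 DT mice 5 were below the lowest PBS mouse, and DT 4, at 49.4, was above 2 PBS mice. The means were 52.0 ± 9.81 (SD, n = 5) and 38.2 ± 6.09 (SD, n = 6), a difference of -0.43 on the log2 scale (95% CI -0.78 to -0.08, limma adjusted p = 0.315), and the exact permutation p was 0.0238 (two-sided, adjusted p = 0.348). The lowest value, in DT 3, rests on 32 reads, for which the exact 95% Poisson interval is 21.9 to 45.2 reads and covers counting error only. Counting alone gives Ccne1 a spread of 15.2%, close to the 15.9% measured between the DT mice and to the 18.9% between the PBS mice. Without PBS 3 and PBS 5, which had its 2 highest values, the difference was -0.26 (limma adjusted p = 0.439).

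Ccne2 (chr4:11191351-11204779, plus strand), which encodes cyclin E2, had 122, 89.4, 108, 71.0 and 131 normalized counts after PBS and 65.3 to 103 after DT (median 76.3). The groups overlapped widely, since PBS 4 was below 4 DT mice. The difference was -0.35 on the log2 scale (95% CI -0.71 to 0.0060, limma adjusted p = 0.438), and -0.20 without PBS 3 and PBS 5. The ratio of Ccne1 to Ccne2 was -0.99 ± 0.17 on the log2 scale in PBS mice (SD, n = 5) and -1.08 ± 0.20 in DT mice (SD, n = 6), a difference of -0.09 that is smaller than either SD.

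**Figure D1:**
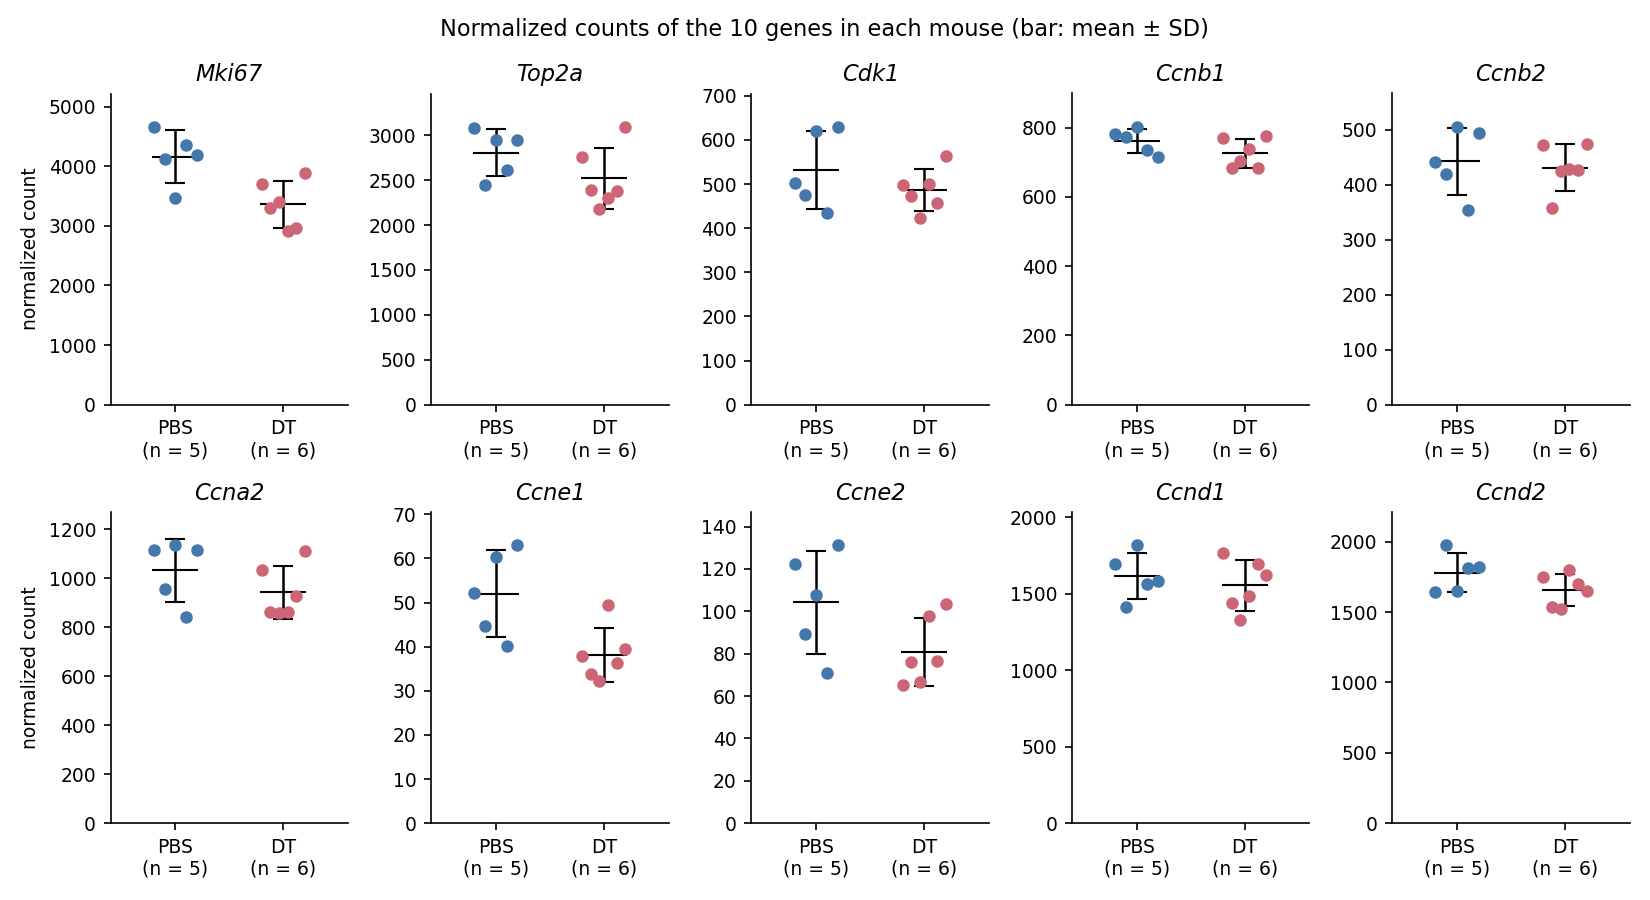
Normalized counts (vertical axis, starting at 0) of the 10 genes in each PBS mouse (blue, n = 5) and DT mouse (red, n = 6), with the mean and SD as black bars. The groups overlap for all 10 genes. Mki67 and Ccne1 are the ones in which 4 PBS mice lie above every DT mouse and 5 DT mice lie below every PBS mouse, respectively.

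The remaining genes of S phase, G2 and mitosis differed less. Top2a (chr11:98992943-99024189) had 3077, 2451, 2948, 2614 and 2948 normalized counts after PBS and 2179 to 3093 after DT (median 2389). Of the 6 DT mice 4 were below the lowest PBS mouse, but DT 6 had the highest Top2a count of all 11 mice. The difference was -0.16 on the log2 scale (95% CI -0.34 to 0.020, limma adjusted p = 0.491).

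Ccna2 (chr3:36564865-36572150), the cyclin of S and G2, had 1117, 957, 1135, 842 and 1116 normalized counts after PBS and 857 to 1112 after DT (median 896). The lowest Ccna2 value was in a PBS mouse, PBS 4, and the difference was -0.13 (95% CI -0.32 to 0.058, limma adjusted p = 0.608), which became -0.20 without PBS 4 and -0.04 without PBS 3 and PBS 5. Cdk1 (chr10:69335146-69352938), the mitotic kinase, had 501, 475, 620, 434 and 630 normalized counts after PBS and 424 to 563 after DT (median 485). Only PBS 3 and PBS 5 were above the highest DT mouse for Cdk1, the difference over all mice was -0.12 (95% CI -0.33 to 0.088, limma adjusted p = 0.684), and without these 2 mice it was 0.04. Leaving out 1 mouse put it between -0.19 (without PBS 4) and -0.06 (without PBS 5).

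The B cyclins, partners of Cdk1 in mitosis, had the differences closest to 0 among the 6 genes of S, G2 and M. Ccnb1 (chr13:100778650-100786570) had 781, 774, 803, 737 and 716 normalized counts after PBS and 683 to 775 after DT (median 721). Its spread was the narrowest of the 10 genes (4.61% between PBS mice, 5.83% between DT mice), and the difference was -0.07 (95% CI -0.19 to 0.047, limma adjusted p = 0.670). Ccnb2 (chr9:70407692-70421547) had 440, 420, 505, 354 and 494 normalized counts after PBS and 357 to 474 after DT (median 428). The lowest Ccnb2 values of the groups were nearly equal, and the difference was -0.03 (95% CI -0.23 to 0.17, limma adjusted p = 0.928), with a sign that turned when PBS 3, PBS 5 or DT 2 was left out.

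The D cyclins, which answer to growth signals in G1, overlapped between the groups as well, Ccnd1 more than Ccnd2. Ccnd1 (chr7:144929931-144939925) had 1692, 1416, 1816, 1565 and 1581 normalized counts after PBS and 1326 to 1769 after DT (median 1553). The difference was -0.06 (95% CI -0.22 to 0.11, limma adjusted p = 0.838), and it lay between -0.10 (without PBS 2) and -0.01 (without DT 3) when 1 mouse was left out. Ccnd2 (chr6:127125162-127152193) had 1641, 1975, 1649, 1816 and 1818 normalized counts after PBS and 1520 to 1800 after DT (median 1673). The mice PBS 2, PBS 4 and PBS 5 were above every DT mouse for Ccnd2, and the difference was -0.10 (95% CI -0.23 to 0.029, limma adjusted p = 0.559), or -0.06 without PBS 2.

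Hence 0 of the 10 genes passed the adjusted threshold of 0.1 in limma, where 0.558% of all genes did (107 genes, 60 higher and 47 lower after DT). An unadjusted p under 0.05 was reached by 2 of the 10, Mki67 and Ccne1, both lower after DT, against 11.5% of all genes and 6.19% of all genes in that direction. For none of the 10 were the groups separate, as they were for 1.65% of all genes. All 10 differences were negative, with a median of -0.13, whereas 52.7% of all genes had a negative difference and their median was -0.01. The 10 genes are not independent of each other, and PBS 3 and PBS 5 stood apart from the other PBS mice on the first principal component of the 500 most variable genes (17.2 and 20.9, against -13.0 to -11.9 in the other 3 and -9.09 to 10.5 in the DT mice). Without both of them 8 of the 10 differences were negative, and Mki67 passed (-0.39, limma adjusted p = 0.0165) in a fit in which 10.3% of all genes passed.

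**Figure D2:**
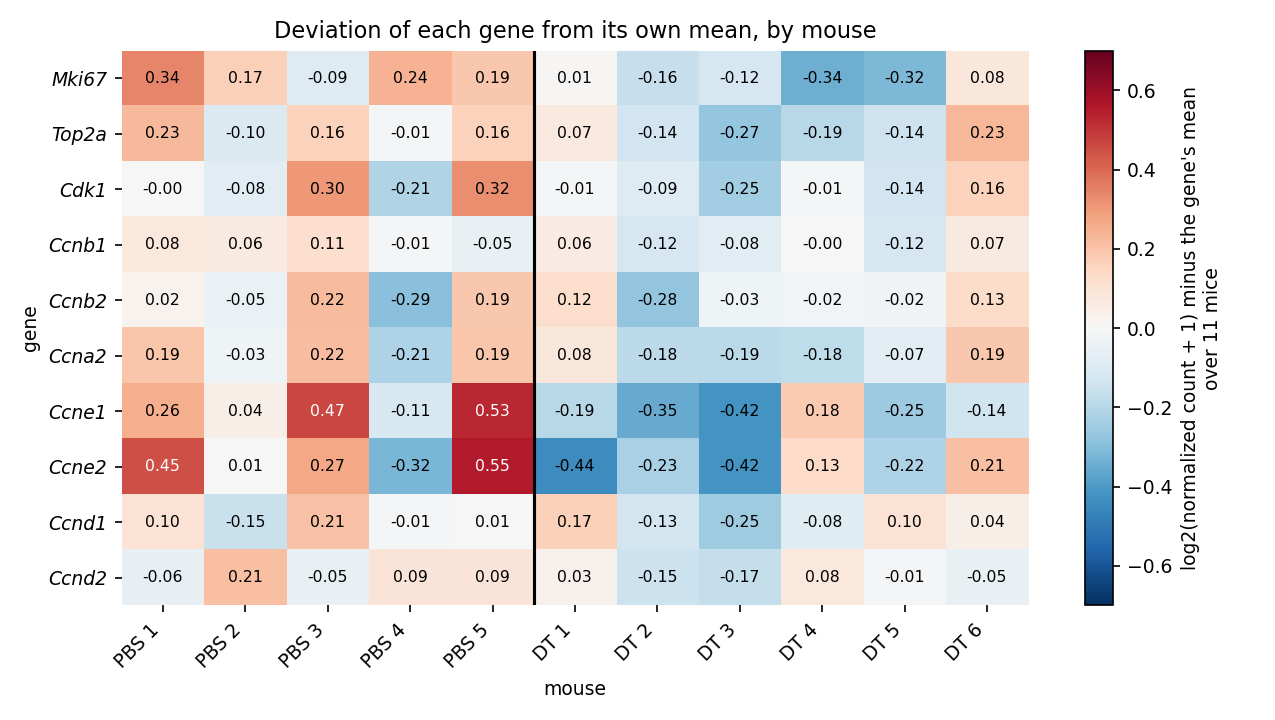
Deviation of log2(normalized count + 1) from the gene's own mean over 11 mice (colour and printed number), for the 10 genes (rows) in the 5 PBS and 6 DT mice (columns, divided by a black line). DT 2 and DT 3 are below the mean in all 10 rows, and the row of Mki67 differs from those of Cdk1 and Ccnb2 in PBS 3 and PBS 4.

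The mice also differed from each other across the members. DT 2 and DT 3 were below the mean of the gene for all 10 members, and DT 3 was the lowest mouse of all 11 for 5 of them. DT 6, by contrast, was above the mean for 8 of the 10, as were PBS 1 and PBS 3, and PBS 5 was for 9. PBS 4 was below the mean for 8 members, with Mki67 and Ccnd2 as the exceptions. The mean deviation over the 6 genes of S, G2 and M ranged from -0.08 to 0.17 in the PBS mice and from -0.16 to 0.14 in the DT mice.

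The members moved together across mice to unequal degrees. The 15 pairs among the 6 genes of S, G2 and M had Pearson correlations from 0.047 to 0.894 over the 11 mice, with a median of 0.632 (0.548 with the group means removed). The highest was between Top2a and Ccna2 (r = 0.894, permutation p = 0.00118, adjusted over 45 pairs p = 0.0133; rho = 0.755, permutation p = 0.0101, adjusted p = 0.0639). It was 0.872 without the 2 mice farthest from the median of Top2a and 0.875 with the group means removed. The E cyclins followed each other as well (r = 0.858, permutation p = 0.00107, adjusted p = 0.0133; rho = 0.818, permutation p = 0.00330, adjusted p = 0.0297), with 0.794 without the 2 farthest mice and 0.807 with the group means removed.

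Mki67 went less closely with this group. Its correlation was 0.634 with Top2a (permutation p = 0.0394, adjusted p = 0.118; rho = 0.709, permutation p = 0.0177, adjusted p = 0.0691; 0.450 without the 2 farthest mice; 0.484 with the group means removed). With Ccnb2 it was 0.047 (permutation p = 0.889, adjusted p = 0.889; rho = 0.082, permutation p = 0.817, adjusted p = 0.877; 0.016 without the 2 farthest mice; -0.043 with the group means removed). The log2 ratio of Mki67 to Cdk1 was 2.98 ± 0.35 in PBS mice (SD, n = 5) and 2.79 ± 0.16 in DT mice (SD, n = 6). Ccnd2 went least with the rest, with correlations from 0.048 to 0.410 over its 9 pairs.

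By the pattern over the 11 mice, the non-member genes most like the mean of the 6 S, G2 and M genes were Ckap2 (r = 0.946), Cdca3 (0.945), Ncaph (0.943), Ckap2l (0.938) and Spc25 (0.938), among 10011 genes whose mean reached 100 normalized counts. Ckap2 and Ckap2l encode spindle proteins, Ncaph a condensin subunit and Spc25 a kinetochore protein. Their differences lay between -0.23 for Ncaph and -0.09 for Ckap2l, a sign that the choice by likeness to the members favours, and none passed the threshold (lowest limma adjusted p = 0.484). For Ccnd1 the most alike were Tfb1m (0.894), Lyrm4 (0.891) and Lrrc8a (0.874), and for Ccnd2 they were Lrrcc1 (0.804), Sfmbt1 (0.801) and Mbtps2 (0.786).

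Levels of different genes were compared per length, which assumes that reads scale with transcript length. The study's methods cite the QuantSeq guide for the reads while its reporting summary names a stranded mRNA kit, and the assumption was not tested. Per kilobase of the longest transcript, the mean over 11 mice was 508 normalized counts for Top2a, 423 for Ccnd1, 370 for Mki67, 332 for Ccna2, 298 for Ccnb1, 285 for Ccnb2 and 271 for Ccnd2. Each of these 7 overlapped its neighbour in range over the mice, so that their order is loose, and with all exons merged Mki67 came first (370) and Top2a followed Ccnd1 (294). Cdk1 was lower, at 116 ± 15.8 per kilobase (SD, n = 11), with no overlap with Ccnd2 above it or Ccne2 below it. Ccne2 (30.4 ± 7.55) and Ccne1 (22.2 ± 5.23) were the least abundant and overlapped each other.

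**Figure D3:**
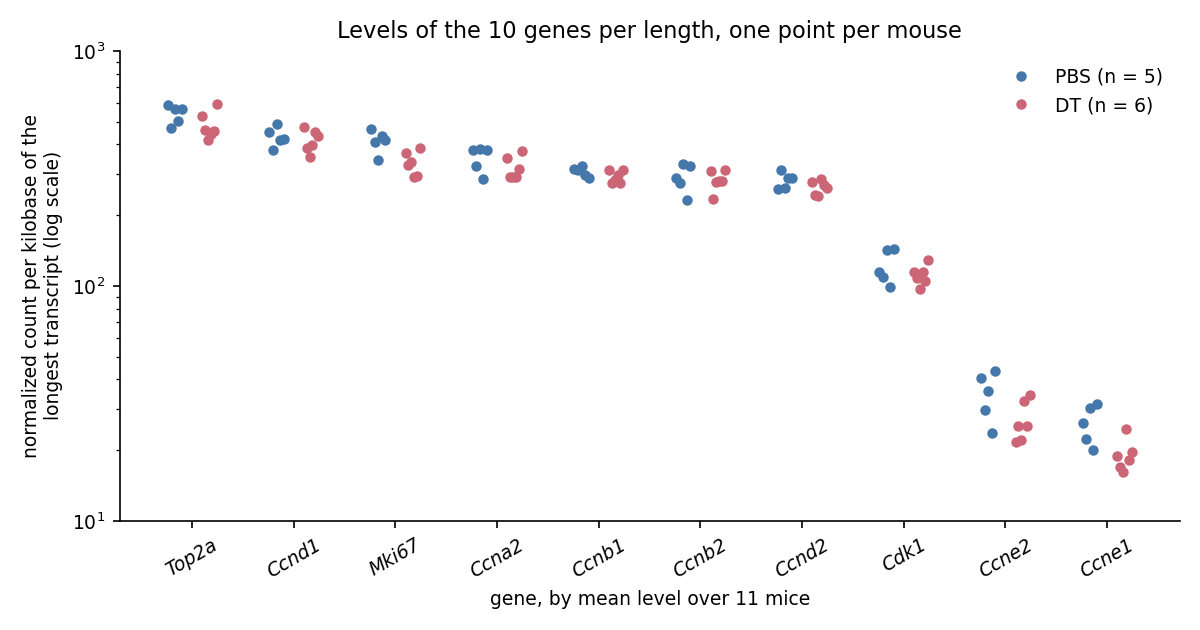
Normalized counts per kilobase of the longest transcript (vertical axis, log scale) of the 10 genes, ordered by their mean over 11 mice, with a point per PBS mouse (blue) and DT mouse (red). The first 7 genes lie close together, Cdk1 lies below them at a mean of 116, and the E cyclins lie lowest at 30.4 and 22.2.

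The genes around the members in the cell cycle were taken as 7 lists, with values for 121 of 124 symbols, and 1 of the 121 passed the adjusted threshold. This share is near the 0.558% of all genes that passed, so the count says nothing particular of the lists. The gene was Cul1, the scaffold of the SCF ubiquitin ligases that mark cyclin E and other cell cycle proteins for breakdown. Cul1 rose after DT, with 1906 ± 71.1 normalized counts in the PBS mice (SD, n = 5) and 2224 ± 113 in the DT mice (SD, n = 6) and no overlap (0.22 on the log2 scale, SE 0.048, limma adjusted p = 0.0782). Its call was lost when any of PBS 1, PBS 2, PBS 3, DT 3, DT 4, DT 5 or DT 6 was left out, with adjusted p between 0.121 and 0.212 in limma. It was also lost with quantile normalization (limma adjusted p = 0.107). In the exact permutation test Cul1 had the smallest p that this test can give, 0.00216 (adjusted p = 0.221). No gene could pass that test after adjustment, so it does not bear on the call. A block on the replicate numbers of the titles (limma adjusted p = 0.392, without DT 6) or of the libraries (0.572, without DT 5) lost the call as well. The list of ubiquitin ligase parts held 8 measured genes, 6 with a positive difference, and Fbxo4, an F-box protein, came next (0.25, limma adjusted p = 0.328).

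The 27 genes of DNA synthesis in S phase showed the most one-sided list. Of these 24 had a negative difference and 0 passed the adjusted threshold, with a median of -0.19 on the log2 scale against -0.01 for all genes. An unadjusted p under 0.05 was reached by 7 of the 27, all with a negative difference, where 6.19% of all genes reached it in that direction. The smallest p belonged to Lig1, the ligase that joins Okazaki fragments, with 422 ± 64.2 normalized counts after PBS and 339 ± 27.7 after DT (-0.30, limma adjusted p = 0.223, or -0.16 without PBS 3 and PBS 5). Pole, the catalytic subunit of the leading-strand polymerase, had 196 ± 21.7 and 155 ± 24.3 (-0.34, limma adjusted p = 0.242). This tilt was smaller without PBS 3 and PBS 5, with 19 of 27 negative and a median of -0.05.

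Among 19 partners of Top2a and chromosome condensation genes, 15 had a negative difference and 0 passed. Ncapg2, of condensin II, had 376 ± 71.0 normalized counts after PBS and 284 ± 37.4 after DT (-0.39, limma adjusted p = 0.220), and passed when PBS 4 was left out (-0.48, limma adjusted p = 0.0996). Ncapd2, of condensin I, had 1213 ± 47.1 and 1074 ± 106 (-0.18, limma adjusted p = 0.290). The tilt of this list held without PBS 3 and PBS 5, with 14 of 19 negative and a median of -0.08 (-0.10 with all mice). In that fit 1 of the 19 passed, lower after DT.

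Of 26 mitotic kinases, phosphatases and regulators of the anaphase-promoting complex, 20 had a negative difference and 0 passed. Espl1, the separase that cuts cohesin at anaphase, had 391 ± 33.4 normalized counts after PBS and 328 ± 26.2 after DT (-0.25, limma adjusted p = 0.218). Aurka, the centrosomal Aurora kinase, went the other way, with 214 ± 29.1 and 255 ± 21.9 (0.26, limma adjusted p = 0.289). Without PBS 3 and PBS 5, 12 of the 26 were negative, and Aurka was the 1 that passed (0.39, limma adjusted p = 0.0175).

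Of 20 RB, E2F, DREAM and MuvB genes 13 had a negative difference and 0 passed. E2f2, an activator E2F, had 368 ± 15.1 normalized counts after PBS and 322 ± 42.1 after DT (-0.20, limma adjusted p = 0.357). Tfdp1, the partner with which E2F factors bind DNA, was between 1017 and 1049 in the PBS mice and between 1049 and 1150 in the DT mice, with no overlap (0.10, limma adjusted p = 0.377).

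The remaining cyclins and kinases (13 genes, 5 negative) and the CDK inhibitors (8 genes, 3 negative) held no gene past the threshold. Cdk6, a partner of the D cyclins, had 836 ± 65.8 normalized counts after PBS and 701 ± 63.1 after DT (-0.25, limma adjusted p = 0.192). Ccnh, the cyclin of the CDK-activating kinase, had 270.2 ± 12.2 and 306 ± 15.1 (0.18, limma adjusted p = 0.287). The inhibitors Cdkn1b (-0.17, limma adjusted p = 0.455) and Cdkn2b (0.10, limma adjusted p = 0.641) had the smallest p of their list. Without PBS 1 the difference of Cdkn1b was -0.10, and that of Cdkn2b ranged from 0.06 (without PBS 4) to 0.16 (without PBS 5). Without PBS 3 and PBS 5 both passed in limma, Cdkn1b at -0.30 (adjusted p = 0.0232) and Cdkn2b at 0.23 (adjusted p = 0.0345). In that fit Cdk6 passed too (-0.27, limma adjusted p = 0.0603), while a length and GC correction put it at -0.15. Without PBS 3 and PBS 5, 10 of the 121 genes passed, 5 in each direction, where 10.3% of all genes passed.

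**Figure D4:**
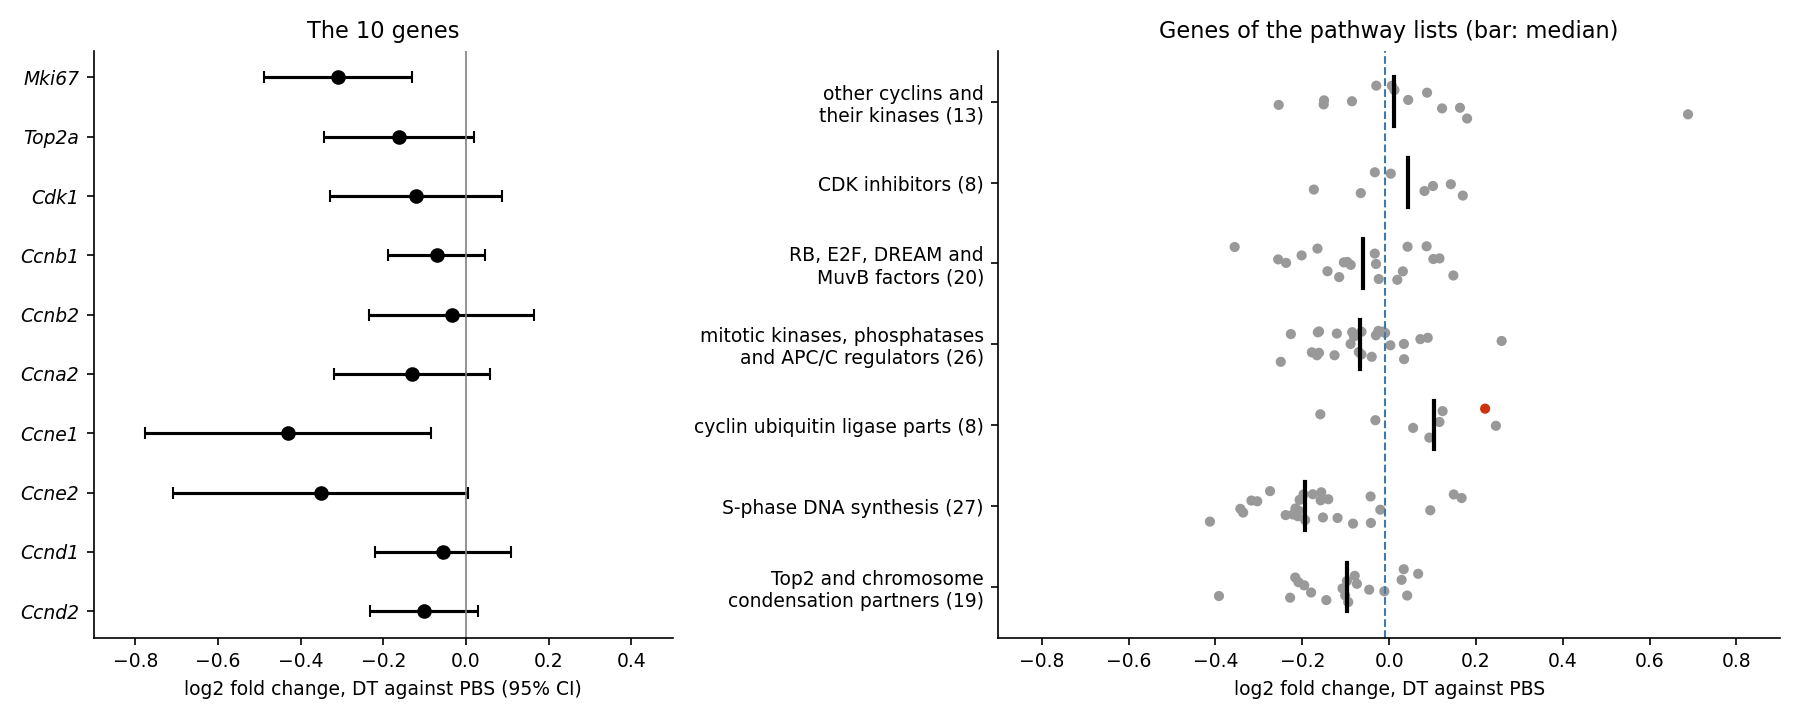
Left, log2 fold change of the 10 genes after DT against PBS (points) with the 95% confidence interval (bars), of which those of Mki67 and Ccne1 stay below 0. Right, log2 fold changes of the genes of 7 cell cycle lists (points, with the number of genes measured), the median of each list (black bar) and that of all genes (dashed line, at -0.01). Cul1 is the red point, and the median of the S-phase list is -0.19.

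Markers of the tissue and of other cells were read beside these results. Basal keratinocyte markers, those of the dividing layer, were present for 8 of 8 genes, their summed normalized counts lay between 303684 and 386991 after PBS and between 327458 and 371948 after DT, and 0 of the 8 passed the threshold while all 8 differences were positive. Of the T lymphocyte list 6 of 7 measured genes had a negative difference, 0 passed, Trac and Trdc were without a value, and the sum was 55.4, 35.0, 91.5, 23.7 and 61.9 after PBS and between 27.2 and 47.2 after DT. The highest T lymphocyte sums were thus in PBS 3 and PBS 5, which were also highest for Ccne1 and Cdk1, and the part of lymphocytes in these values was not tested. The B lymphocyte and plasma cell, macrophage and monocyte, and Langerhans cell lists leaned the same way, with 0 genes past the threshold. The neutrophil list was mixed, with a positive difference for 2 of 3 measured genes, S100a8 (0.60, limma adjusted p = 0.660) and S100a9 (0.61, limma adjusted p = 0.619). Csf3r had a negative difference (-0.37, limma adjusted p = 0.808), and Elane, Ly6g, Mpo and Retnlg were without a value. The neutrophil sum lay between 631 and 3301 in PBS mice and between 613 and 3675 in DT mice, and 0 genes of this list passed. Of the B lymphocyte and plasma cell list 5 of 5 measured genes had a negative difference (summed normalized counts 12.6 to 63.7 in PBS mice, 10.98 to 26.4 in DT mice, Igkc without a value). Of the macrophage and monocyte list 5 of 6 did (265.9 to 475 in PBS mice, 264.9 to 395 in DT mice), and of the Langerhans cell list 6 of 8 did, among them Cd74 (-0.50, limma adjusted p = 0.409) and H2-Ab1 (-0.53, limma adjusted p = 0.436). The study speaks of purified epithelial cells, and a sort that would remove leukocytes is not given in the sources used here for these libraries. Cd207, the gene of langerin, had 15.8, 18.5, 32.2, 10.0 and 43.0 normalized counts after PBS and between 15.8 and 21.6 after DT, again with PBS 3 and PBS 5 highest. At this age the paper reports that Langerhans cells were back after DT. In all, 0 genes of the 13 marker lists passed the threshold, where 0.558% of all genes did. With so small a share over all genes, this 0 says nothing particular of the marker lists.

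Some limits apply to single members. In the annotation a gene on the opposite strand overlaps Mki67, Top2a, Ccna2 (Exosc9), Ccne2 (Ints8), Ccnd1 and Ccnd2. Whether reads were counted by strand is not given in the sources used here, so reads of such pairs cannot be told apart. The reads counted per mouse numbered 17509328 to 24325513 over the genes with values.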

How the data were processed

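Libraries of the gingival epithelium of 5 PBS and 6 DT mice were sequenced (NovaSeq in the labels, NextSeq in the study's reporting summary). That summary names a stranded mRNA kit, while the study's methods cite the QuantSeq guide for the reads. The authors trimmed the reads, aligned them with TopHat, counted them per gene with htseq-count, dropped genes whose counts summed to less than 10, and divided by DESeq2 size factors. The study's methods give GRCm38, and the submitters' processing notes give GRCm39, TopHat2 2.1.1, HTSeq 2.01, cutadapt 2.10 and DESeq2 1.36.0. The values deposited by the authors are thus normalized counts. Of 55414 genes listed, 36244 had no value. Values of up to 200 reads were whole multiples of the value of 1 read (within 0.1) in 100% of cases, which gave the depth. Spread from counting alone is the inverse square root of the reads of each mouse, averaged over the mice.

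DT and PBS were compared with limma 3.58.1 in R 4.3.3, letting the variance follow the mean level, on log2(normalized count + 1) over 19170 genes and all 11 mice, with Benjamini-Hochberg adjustment and a threshold of 0.1. Fold changes on this scale understate changes of low genes. Labels give no litter or cage. Correlations were tested with 100000 permutations. Positions and lengths came from GENCODE mouse release 21 on GRCm38. The members, the 7 pathway lists and the 13 marker lists were chosen with earlier results of these data known. Named beside the members were, per pathway list, the genes past the threshold or else the 2 with the smallest p, the 5 and 3 genes most alike in pattern, and Cd207. The alternatives were pseudocounts of 0.5 and 5, a mean of at least 10, TMM and quantile scaling, array weights, blocks on 2 numberings, an exact permutation test, merged exons and leaving out each mouse. Leaving out PBS 3 with PBS 5, and a length and GC correction (loess, span 0.3, degree 1), were added after seeing the data.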

Additional observations from a re-analysis of the deposited data

Results flagged for a closer look

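In 78 groups of 5 or 6 mice (members, named genes and marker sums), 1 mouse lay apart from its group by Dixon's criterion at the 95% level, and chance flags about 1 in 20 groups. Aurka had 299 normalized counts in DT 6, while the other 5 DT mice lay between 243 and 252. No member had such a mouse in either group.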

How the results depend on the processing

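Of 220 refits of the 10 members (22 alternatives each), 213 kept the direction and the side of the threshold. Mki67 passed without PBS 3 (fold changes without 1 mouse ranged from -0.37 to -0.27 on the log2 scale) and without PBS 3 and PBS 5 (-0.39). The length and GC correction put Mki67 closest to 0, at -0.21 (limma adjusted p = 0.188). The number of members called was 0 to 1 without 1 mouse and 1 without PBS 3 and PBS 5. Without both, Cdk1 turned to 0.044 and Ccnb2 to 0.089, and Ccnb2 ranged from -0.11 to 0.018 without 1 mouse (0.016 without PBS 3, 0.0083 without PBS 5 and 0.018 without DT 2). The count of all genes called, 107, was 189 with array weights, 182 with the length and GC correction (145 higher and 37 lower, against 60 and 47), 1967 without PBS 3 and PBS 5, and 27 to 259 without 1 mouse (27 without DT 5, 29 without PBS 1, 30 without DT 6, 40 without PBS 2, 50 without DT 4, 52 without DT 3, 61 without DT 1, 170 without PBS 4 and 259 without PBS 5). Pathway genes called, 1, numbered 0 with quantile normalization, 10 without PBS 3 and PBS 5, and 0 to 3 without 1 mouse (3 without PBS 4). The exact permutation test over 462 splits, whose smallest p is 0.00216, called 0 genes and 0 pathway genes after adjustment and had 2203 genes at an unadjusted p under 0.05. For Mki67 its two-sided p was 0.0195.

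A replicate block on the title numbers gave 36 genes and 0 pathway genes called, and on the library numbers 0 and 0 (limma, 1397 genes at an unadjusted p under 0.05). A block used only numbers found in both groups, so the title block lacked DT 6 and the library block lacked DT 5. Without a block, leaving out DT 6 gave 30 genes called and leaving out DT 5 gave 27. Whether same-numbered mice were paired is not given in the labels. Deviations of same-numbered mice from their group means correlated from -0.233 to 0.324 on the titles. On the library numbers they correlated from -0.233 to 0.172, with -0.0477 for library number 6. The cause of these shifts was not tested. Merged exons moved the level per kilobase of Top2a to 294, Ccnb1 to 176, Ccna2 to 241, Ccne1 to 16.7, Ccnd1 to 336 and Ccnd2 to 182. Tests on counts with edgeR or DESeq2 were planned and not run. The whole reads found in the low values could not be established as counts for the full table, which also holds genes without values. They served for depth, reads per mouse, the spread from counting and the Poisson interval, and not for comparing DT with PBS. Depth limits Ccne1 most, at 32 to 60 reads per mouse.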
